A study of Mus musculus with 8 samples.

Results

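H19, Igf2, Dlk1, Meg3, Peg3, Cdkn1c, Grb10, Mest, Plagl1 and Ndn are imprinted genes of growth control, and all 10 were found among the 18770 genes listed for mouse dorsal skin treated with alpinetin (AP) or vehicle (VC). They were picked by name as a co-regulated set and chosen by the measured AP and VC values of the same libraries, so their differences between the groups are given as a description. Counts of calls among them stand only beside the share over all genes, and no p-value of theirs is given. Of the 10 genes, 9 passed a filter that asked for 3 or more normalized counts in 4 or more of the 8 libraries, and Igf2 did not. Whether they share a pattern was not tested; of the 9 log2 differences (AP minus VC), 4 were above 0 and 5 below.

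Imprinted genes are expressed mainly from the copy inherited from a single parent, under the control of DNA methylation set in the germ line. Many lie in clusters and act on growth before and after birth, with paternally expressed genes such as Igf2 often promoting growth and maternally expressed genes such as H19, Cdkn1c and Grb10 often restraining it. H19 and Igf2 are neighbours that share enhancers, and in muscle H19 is known to stay expressed after birth while most other tissues silence it.

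RNA was measured in dorsal skin from wild-type C57BL/6 mice (C57BL/6J in the paper) aged 7 to 8 weeks, sampled 4 days after depilation. According to the paper's methods, the keratinocytes of the epidermis between the follicles had been removed. Mice of the AP group (n = 4 libraries) received 20 µl of AP at 3 mg/ml in 65% ethanol on the skin daily from 24 h after depilation, and mice of the VC group (n = 4 libraries) received the 65% ethanol alone. AP is a plant flavonoid of the ginger family, and the comparison asks how the transcriptome of the skin differed under AP. Values are normalized counts, that is, reads per gene divided by 1 size factor per library. Library names such as VC.1 and AP.1 could be tied to the groups but not to individual mice. The libraries were made from mRNA enriched with oligo-dT beads.

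Depth and composition differed between the groups. The VC libraries held 6454563 to 7264151 reads on the listed genes and the AP libraries 8507783 to 11190113. The share of reads on genes of the mitochondrial genome was 48.4% ± 5.8 (SD, n = 4) in VC and 8.66% ± 2.6 (SD, n = 4) in AP, and scaling by total counts moved the median log2 difference of all genes tested from 0.06 to 0.90. Differences below are on the deposited scale and thus relative to a median near 0. Over all 15964 genes tested, limma called 1650 genes at an adjusted p under 0.05, 1011 higher and 639 lower in AP. AP.1 stood apart from the other AP libraries in skeletal muscle RNA, as described with H19. Log2 differences without it are given for H19, Cdkn1c, Grb10, Ndn, Meg3 and the muscle markers. VC.1 stood apart over all genes: it had 15172 genes with a read, against 16510 to 18049 in the other libraries, and on the first principal component (42.3% of the variance) it scored −124 against −44.2 to −16.3 in the other VC libraries and 25.4 to 65.4 in AP. Without VC.1, the limma count of genes called, AP against VC, was 839, with 0 of the 10 imprinted genes.

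Of the 9 imprinted genes tested, limma called 0 at an adjusted p under 0.05, beside 10.3% of all genes tested, and 3 had an unadjusted p under 0.05, beside 30.3% of all. EdgeR called 0 of the 9 with 2 at an unadjusted p under 0.05, and DESeq2 called 1, Cdkn1c. Over all genes tested, edgeR called 10.7% and DESeq2 19.04%. In 0 of the 9 genes did the AP libraries lie wholly above or wholly below the VC libraries, a pattern that 10.3% of all genes tested showed upwards and 8.91% downwards. Without AP.1, limma called 3 of the 9 lower in AP, H19, Ndn and Cdkn1c, beside 11.9% of the 15719 genes tested in that fit. Since the same contrast entered the choice of the genes, nothing is read from these counts.

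H19, a long noncoding RNA at chr7:142575529-142578143 on the minus strand (mm10), was the most abundant of the 10 genes per length. Its normalized counts were 2419, 3357, 2139.7 and 2064 in VC.1 to VC.4. They were 3132, 576, 285 and 577 in AP.1 to AP.4. AP.1 thus lay within the VC range while the other 3 AP libraries lay below all 4 VC libraries, and the groups overlapped. The log2 difference between AP and VC was −1.73 (SE 0.56) and became −2.42 without AP.1 and −0.86 with total-count scaling. The mean was 2495 ± 595 (SD, n = 4) in VC and 1143 ± 1333 (SD, n = 4) in AP, and by edgeR and DESeq2, which compare means of reads and not of log2 values, the difference was −1.14 and −1.13. In bulk skin, fewer cells of a type and less RNA per cell cannot be told apart.

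**Figure D1:**
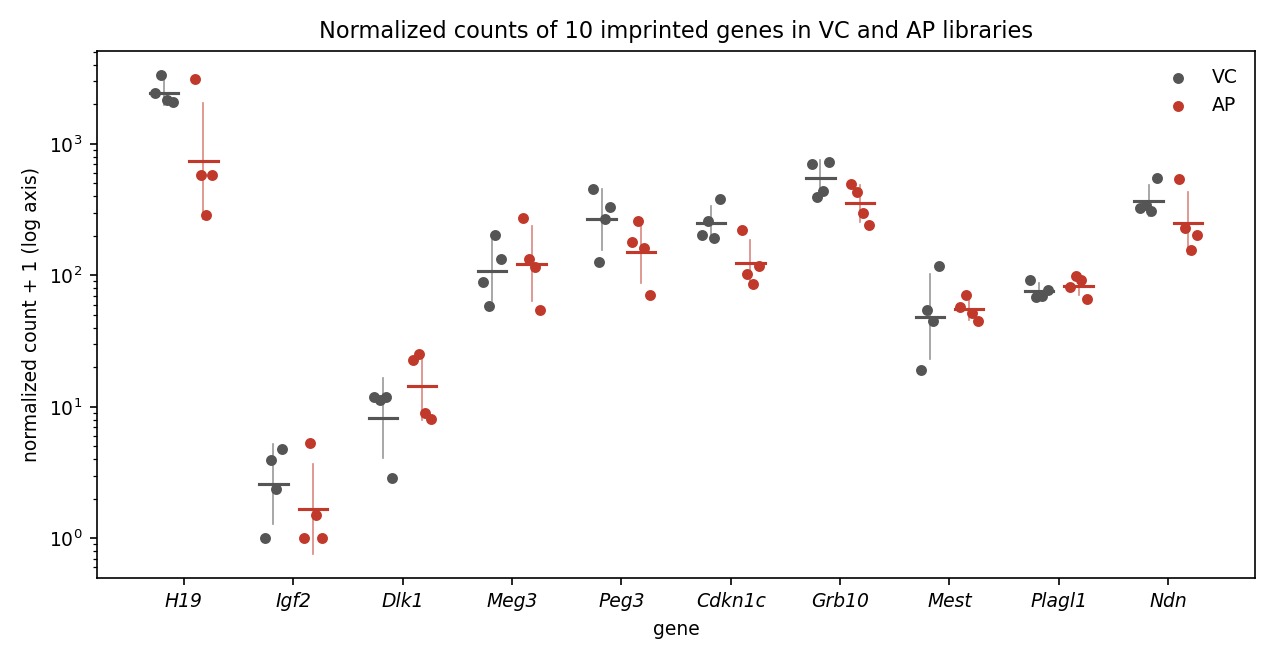
Normalized counts plus 1 (log axis) of the 10 imprinted genes in the 4 VC libraries (grey points) and the 4 AP libraries (red points), with the mean on the log2 scale (horizontal bar) and 1 SD on that scale (vertical line). H19 was at 3132 in AP.1 and at 285 to 577 in the other AP libraries, Igf2 was near 0 in both groups, and in every gene the groups overlapped.

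The sum of a list of skeletal muscle fibre markers varied over the libraries much as H19 did. The summed normalized counts of 10 muscle fibre markers (Acta1, Ckm, Myh1, Myh2, Myh4, Mylpf, Tnnt3, Actn3, Pvalb and Tnni2) were 47394, 72339.7, 37521 and 36574 in VC.1 to VC.4. In AP.1 to AP.4 the sums were 71803, 9253, 5464 and 11789. AP.1 was again close to the highest VC library, and the other 3 AP libraries were below all VC libraries. H19 amounted to 5.10%, 4.64%, 5.70% and 5.64% of this sum in the VC libraries and to 4.36%, 6.23%, 5.23% and 4.90% in the AP libraries. From the highest to the lowest library H19 differed 11.8-fold and the muscle sum 13.2-fold, whereas their ratio differed 1.43-fold. The ratio averaged 5.27% ± 0.50 (SD, n = 4) in VC and 5.18% ± 0.79 (SD, n = 4) in AP, a log2 difference of −0.03, and it was 0.05 without AP.1.

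Acta1, the actin of the muscle thin filament, was the most abundant gene of the muscle list, and no marker of that list was at 0 in any library. By limma, on means of log2 values, the 10 markers had a median log2 difference of −1.72, beside 0.06 over all genes tested. By edgeR and DESeq2, which compare means of reads, their differences ran from −1.36 to 0.16 and from −1.35 to 0.18. Mean normalized counts of Myh1 and Myh4 were higher in AP (3871 and 2813) than in VC (3426 and 2504), and those of the other markers were lower. Limma called 0 of the 10 at an adjusted p under 0.05, with 8 at an unadjusted p under 0.05. EdgeR called 0 with 1, and DESeq2 called 0 with 0. Over all genes tested, limma called 10.3%, edgeR 10.7% and DESeq2 19.04%, and by limma 30.3% had an unadjusted p under 0.05. Without AP.1, limma called 10 of the 10 lower in AP, with a median of −2.50, beside 11.9% of all genes in that fit. Acta1 then had a log2 difference of −2.62 (adjusted p = 0.00243, from 0.00243 to 0.188 over all alternatives). The ratio was chosen as a measure after seeing the data, and how muscle RNA came to differ between the libraries was not tested.

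**Figure D2:**
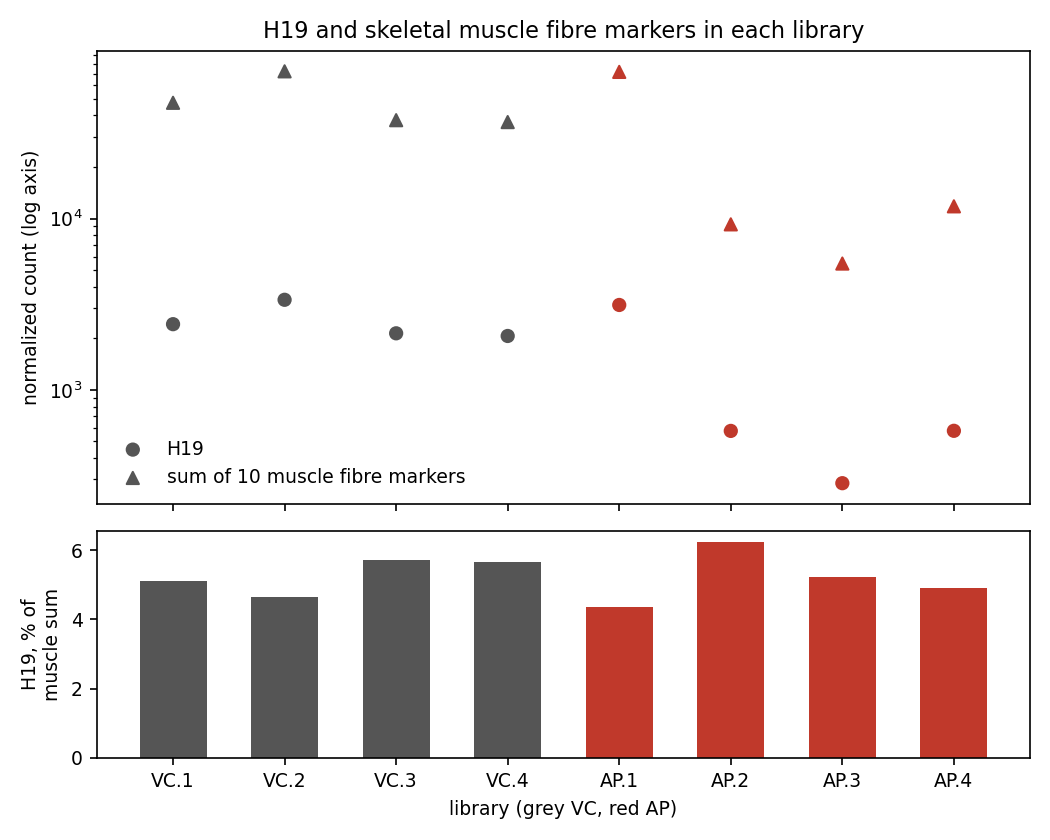
Upper panel, normalized counts (log axis) of H19 (circles) and of the sum of 10 skeletal muscle fibre markers (triangles) in each VC library (grey) and AP library (red). Lower panel, H19 as a percent of that sum, which lay between 4.36% and 6.23% in the 8 libraries.

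The 5 genes whose log2 profile over the 8 libraries was closest to that of H19 were Eno3, Rabep2, Ckm, Eef1a2 and Acta1, out of 11256 genes tested with a mean of at least 50. Their root-mean-square distances to H19 on the log2 scale were 0.14, 0.15, 0.17, 0.17 and 0.18, beside a median of 1.31 over those genes. Eno3 is the enolase of muscle, Ckm the muscle creatine kinase, and Eef1a2 the elongation factor form of muscle and neurons. Eno3 had 2401, 3019, 1804 and 1581 normalized counts in VC.1 to VC.4. In AP.1 to AP.4 it had 2931, 448, 258 and 590, again with AP.1 in the VC range. Rabep2, which acts in endosome traffic, shares 763 exonic bases with Atp2a1, the calcium pump of fast muscle on the opposite strand, and their reads cannot be told apart without the strand setting of the counting. The muscle markers were not all alike in this order. Tnnt3 was at place 6 and Mylpf at place 16, whereas the myosin heavy chain genes Myh4, Myh1 and Myh2 were at places 139, 280 and 2980, with distances of 0.71, 0.88 and 1.17. In AP.1, Myh1 at 14048 and Myh4 at 9027 normalized counts lay above all VC libraries, which reached 6597 and 4034. Of the imprinted genes with a mean of at least 50, 4 were nearer to H19 than the median gene and 3 farther. Cdkn1c was at place 152 in this order with a distance of 0.74, Ndn at place 190 with 0.80 and Grb10 at place 846 with 1.01. Mest, at place 8446, was the farthest of those ranked, with a distance of 1.49.

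Igf2, the growth factor gene at chr7:142650766-142666816 on the minus strand, was near the limit of detection. It had 0, 2, 1 and 2 reads in VC.1 to VC.4. It had 0, 8, 1 and 0 reads in AP.1 to AP.4. Only AP.2 was above the floor of 3 reads, and no fold change is given. Of its 5723 exonic bases, 3596 are shared with Gm49394, an annotated gene on the same strand that had 0 to 2 reads per library, and 98 with Igf2os on the opposite strand. How reads that fall on more than 1 gene were counted was not stated, so reads on the shared bases may be missing from the count. The other 2029 exonic bases overlap no other annotated gene, and they can have given no more than these 0 to 8 reads per library. The low count of Igf2 is thus not read as its level over all its exons.

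Per kilobase of exon, the VC libraries gave the order H19, Cdkn1c, Ndn, Grb10, Peg3, Mest, Plagl1, Meg3 and Dlk1, with Igf2 left out for its shared exons. H19 stood at 1014 ± 242 normalized counts per kilobase (mean ± SD, n = 4). Cdkn1c stood at 126 ± 42 and Ndn at 103 ± 31 normalized counts per kilobase (mean ± SD, n = 4), which overlap within their spread, as do Peg3 at 21.9 ± 10 and Mest at 14.7 ± 11. H19 ranked 303 in VC and 572 in AP among the 18766 genes with a length, and Ndn ranked 2959 and 3922. In AP, Ndn and Mest came before Cdkn1c and Peg3, with differences within their spread.

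Cdkn1c, an inhibitor of cyclin-dependent kinases that holds cells out of the cycle, lies at chr7:143458339-143461050 on the minus strand. Its normalized counts were 200, 257, 193 and 377 in VC.1 to VC.4. They were 222, 101, 85.2 and 117 in AP.1 to AP.4. Again AP.1 lay within the VC range and the other 3 AP libraries below it. The log2 difference was −1.01 (SE 0.31). With each library left out in turn it ranged from −1.29 without AP.1 to −0.81 without VC.4. With total-count scaling it was −0.14. Exons of Cdkn1c share 625 bases with Gm44732, an annotated gene on the opposite strand.

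Grb10, an adaptor protein that dampens insulin and IGF receptor signalling, lies at chr11:11930508-12038683 on the minus strand. It had 704, 396, 436 and 726 normalized counts in VC.1 to VC.4. It had 490, 432, 297 and 242 in AP.1 to AP.4. AP.3 and AP.4 were below all VC libraries, and AP.1 and AP.2 were not. The log2 difference was −0.63 (SE 0.27), −0.79 without AP.1 and −0.45 without AP.4, and it turned to 0.24 with total-count scaling.

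Ndn, which encodes necdin, a growth-restraining protein of the MAGE family, lies at chr7:62346569-62350262 on the plus strand. Its normalized counts were 322, 341, 310 and 549 in VC.1 to VC.4. They were 543, 228, 154 and 203 in AP.1 to AP.4. AP.1 was close to the highest VC library and the other 3 AP libraries were below all VC libraries. The log2 difference was −0.57 (SE 0.34), −0.94 without AP.1, −0.33 without AP.3, and 0.30 with total-count scaling. Peg3, a zinc finger protein at chr7:6703892-6730431 on the minus strand, ranged from 126 to 449 in VC and from 69.4 to 258 in AP. Its log2 difference was −0.81 (SE 0.43), −1.17 without VC.2, −0.44 without AP.4 and 0.06 with total-count scaling.

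Meg3 and Dlk1 share a domain of chromosome 12. Meg3, a long noncoding RNA at chr12:109541001-109571726 on the plus strand, had 87.3, 57.6, 203 and 131 normalized counts in VC.1 to VC.4. It had 270, 132, 115 and 53.6 in AP.1 to AP.4. The groups covered nearly the same range, and the log2 difference was 0.17 (SE 0.48). It was −0.21 without AP.1, −0.12 without VC.2, 0.56 without AP.4 and 1.04 with total-count scaling. Dlk1, a membrane protein related to Notch ligands at chr12:109452823-109463336 on the plus strand, was low, with 1.88 to 10.9 normalized counts in VC and 7.15 to 24.3 in AP, ranges that overlap. Its log2 difference was 0.80 (SE 0.66), and 0.29 without VC.4, the library with a single read. With total-count scaling it was 1.55.

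Mest, an enzyme of the hydrolase fold family at chr6:30723547-30748465 on the plus strand, ranged from 18.2 to 116 normalized counts in VC and from 43.6 to 69.6 in AP. Its log2 difference was 0.20 (SE 0.47), and it was below 0 with edgeR, with DESeq2 and without VC.1. It was 0.62 without VC.4 and 1.05 with total-count scaling. Exons of Mest share 912 bases with Copg2 on the opposite strand, so reads there cannot be told apart without the strand setting. Plagl1, a zinc finger transcription factor at chr10:13060504-13131694 on the plus strand, varied least within the groups among the 9 tested. It ranged from 68.0 to 91.0 in VC and from 65.1 to 97.1 in AP, with a log2 difference of 0.13 (SE 0.24). This difference ranged from 0.05 to 0.24 when each library was left out, and was 0.99 with total-count scaling. In VC.4, 4 of the 9 genes tested were at their highest, and in AP.4, 4 of the 9 were at their lowest.

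The H19 transcript also carries the hairpin of miR-675, which is shown because H19 was the most abundant of these genes. The hairpin lies in an exon of H19 at chr7:142577064-142577147 on the minus strand (RefSeq, GRCm38.p6). Capitals mark the mature arms in the hairpin, and bases 2 to 8, the seed, in each arm. All sequences are 5′ to 3′.
Mir675 hairpin: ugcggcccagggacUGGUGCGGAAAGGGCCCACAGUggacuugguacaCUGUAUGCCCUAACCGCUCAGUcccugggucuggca
miR-675-5p: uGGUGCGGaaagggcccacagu
miR-675-3p: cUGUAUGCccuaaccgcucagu
The arms have different seeds. The oligo-dT libraries do not measure mature miRNAs, and Mir675 is not among the listed genes, so the H19 counts say nothing of the amount of miR-675. Among the other genes, Mir770 and the mature miR-1906 lie in exons of Meg3, whereas Mir335 and Mir483 lie in introns of Mest and Igf2.

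Of 21 tested genes from the imprinted domains of the 10, 1 changed. Kcnq1ot1, the long noncoding RNA that silences part of the Cdkn1c domain on the paternal chromosome, had 40.0, 50.2, 36.9 and 31.9 normalized counts in VC.1 to VC.4. It had 13.1, 14.0, 14.4 and 20.03 in AP.1 to AP.4. All AP libraries were below all VC libraries, and it fell by 1.31 on the log2 scale (SE 0.36, limma adjusted p = 0.0418). The call was also lost with total-count scaling and with no filter, and when any library other than VC.4 was left out (adjusted p 0.0489 without VC.4 and up to 0.118 without another), and the adjusted p ranged from 0.00206 to 0.307 over all alternatives. Kcnq1ot1 lies inside Kcnq1 on the opposite strand and shares 121 exonic bases with it, so reads of unspliced Kcnq1 RNA and of Kcnq1ot1 cannot be told apart without the strand setting of the counting. The count of 1 in 21 is 4.76%, beside 10.3% over all genes tested. EdgeR called 1 of the 21 and DESeq2 4 (Kcnq1ot1, Atp10a, Ube3a and Tssc4), beside 10.7% and 19.04% over all genes tested. Over the 21 genes, 13 differences were positive and the median was 0.40. Cd81, a tetraspanin and the most abundant of them, had 845 ± 80 normalized counts in VC and 1006 ± 234 in AP (SD, n = 4; limma adjusted p = 0.423).

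Of 21 tested imprinted genes of other domains, 2 fell, or 9.52% beside 10.3% over all genes tested, and the median log2 difference was −0.21, beside 0.06. Gnas, which encodes the stimulatory G protein subunit and was the most abundant, had 8128, 7210, 6504 and 11158 normalized counts in VC.1 to VC.4. It had 5540, 5071, 3432 and 3788 in AP.1 to AP.4. The groups did not overlap (log2 difference −0.89, SE 0.23, limma adjusted p = 0.0379), but the call was lost without any library other than VC.3 and AP.1, and the difference was −0.01 with total-count scaling. Commd1, a copper and NF-κB regulator, fell from 119 ± 16 to 65.9 ± 8.9 (SD, n = 4; log2 difference −0.84, SE 0.23, limma adjusted p = 0.0404). Its call was lost without any library other than VC.4 and AP.1 and with total counts without mitochondrial genes, and its difference was 0.02 with total-count scaling. Exons of Gnas share 1469 bases with Gm20721 on the opposite strand, which itself had 4660 to 9209 reads per library, and exons of Commd1 share 412 with Zrsr1 on the opposite strand and 294 with Gm28048 on the same strand. For these genes the adjusted p without a library reached 0.121 and 0.116, and over all alternatives ranged from 0.00303 to 0.956 for Gnas and from 0.00258 to 0.947 for Commd1.

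Among 14 tested genes of IGF signalling, 2 rose and 0 fell by limma, or 14.3% beside 10.3% over all genes tested, with a median log2 difference of 0.41. Irs2, a substrate of the insulin and IGF receptors, had 94.6, 117, 91.5 and 161 normalized counts in VC.1 to VC.4. It had 238, 243, 291 and 187 in AP.1 to AP.4. All AP libraries were above all VC libraries (log2 difference 1.06, SE 0.23, limma adjusted p = 0.0212), and the call was lost without AP.2 or AP.3, with adjusted p of up to 0.0808, the highest of all alternatives. Igf1r, the receptor of IGF1 and IGF2, was at 152 ± 76 in VC and 318 ± 44 in AP (SD, n = 4; log2 difference 1.19, SE 0.32, limma adjusted p = 0.0386). Its call was lost without VC.1, VC.4, AP.2, AP.3 or AP.4, with adjusted p of up to 0.106, and by edgeR and with total counts without mitochondrial genes. Igfbp4, an IGF binding protein and the gene with the highest mean count of this list, was at 2545 ± 140 in VC and 2260 ± 743 in AP (limma adjusted p = 0.502). Igf1, the other ligand, was at 686 ± 313 and 373 ± 121 (limma adjusted p = 0.120), and limma called it lower in AP without VC.2. DESeq2 called 3 of the 14 higher in AP (Igf1r, Irs2 and Igfbp3), beside 19.04% called over all genes tested. Limma called Igfbp3 higher in AP without AP.2.

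**Figure D3:**
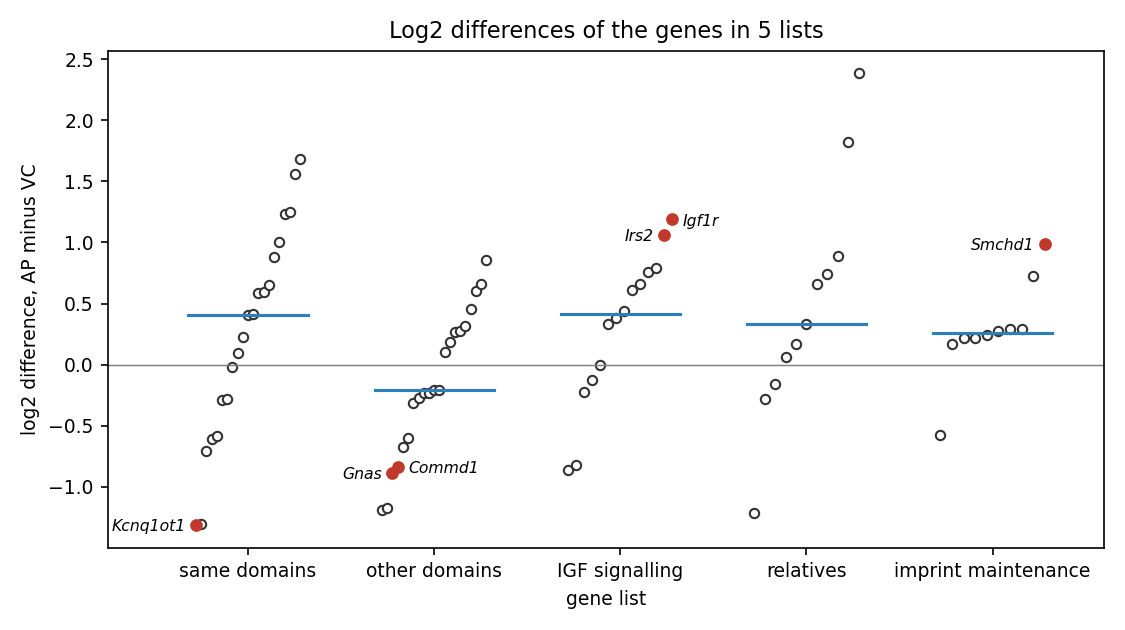
Log2 differences (AP minus VC) of the tested genes of 5 lists, ordered within each list, with the median as a blue line and genes of a limma adjusted p under 0.05 as named red points. The 6 red points are Kcnq1ot1, Gnas and Commd1 below 0 and Igf1r, Irs2 and Smchd1 above 0, and with total-count scaling Commd1 lay at 0.02.

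Limma called 0 of 11 non-imprinted relatives of these genes (other CDK inhibitors, the GRB7 and PLAG families and Dlk2), with 2 at an unadjusted p under 0.05. Over all genes tested, limma called 10.3%, and 30.3% had an unadjusted p under 0.05. EdgeR called 0 of the relatives and DESeq2 1, Plagl2, beside 10.7% and 19.04% over all genes tested. Their median log2 difference was 0.33. Cdkn1a, the most abundant, was at 798 ± 86 in VC and 1013 ± 174 in AP (SD, n = 4; limma adjusted p = 0.189). Of 10 tested genes that keep or read imprints, 1 rose, or 10% beside 10.3% over all genes tested. Smchd1, a chromatin protein that acts in silencing, had 102, 207, 187 and 146 normalized counts in VC.1 to VC.4. It had 255, 291, 390 and 315 in AP.1 to AP.4. The groups did not overlap (log2 difference 0.99, SE 0.24, limma adjusted p = 0.0290), and the call was lost without VC.1, VC.4, AP.2, AP.3 or AP.4. Trim28, a corepressor and the most abundant gene of that list, was at 1054 ± 178 and 1263 ± 108 (limma adjusted p = 0.269).

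Markers of other cell types also differed between the groups, beside 10.3% of all genes tested that limma called (1011 higher and 639 lower in AP). Of 8 suprabasal keratinocyte markers, 7 rose, and their summed normalized counts were 5539, 12183, 8216 and 5291 in VC.1 to VC.4. In AP.1 to AP.4 the sums were 42037, 39832, 116364 and 166570.3, all above the VC libraries, with the keratin Krt10 the most abundant. The methods state that keratinocytes between the follicles were removed, and how complete that was in each library was not tested. Of the basal and follicle keratinocyte markers, 3 of 8 rose (Itga6, Col17a1 and Itgb4), and their sum was 52123 ± 27338 in VC and 96560 ± 45508 in AP (SD, n = 4), led by Krt14. Of the pericyte and smooth muscle markers, 4 of 7 rose, with a sum of 1901 ± 480 in VC and 4717 ± 1770 in AP, led by Acta2. Of the endothelial markers, 2 of 7 rose (Pecam1 and Cdh5), with a sum of 1564 ± 595 in VC and 4202 ± 2478 in AP, led by Vwf. DESeq2 called 6 of these 7, and limma called 4 without VC.3 and 4 without VC.4. DESeq2 called 8 of the suprabasal markers, 3 of the basal and follicle markers and 4 of the pericyte and smooth muscle markers, and edgeR called 7, 2 and 3, and 2 of the endothelial markers. Over all genes tested DESeq2 called 19.04% and edgeR 10.7%.

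Of the dermal papilla markers, 4 of 10 fell (Sox2, Rspo3, Wif1 and Alx4), beside 10.3% of all genes called in either direction, and DESeq2 called 5 of the 10. Together the papilla markers gave sums of 2032, 2190.1, 2799 and 1738 in VC.1 to VC.4. They gave 1087, 919, 1624 and 975 in AP.1 to AP.4, below all VC libraries, with Sox18 the most abundant. Sox2, a transcription factor of papilla cells, fell by 1.78 on the log2 scale (SE 0.36, limma adjusted p = 0.0174). Among genes that mark Schwann cells, S100b, a calcium-binding protein, fell by 1.71 (SE 0.33, limma adjusted p = 0.0149), and Mbp, a myelin protein, fell by 0.91 (SE 0.23, limma adjusted p = 0.0320).

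Sox2, S100b, Pecam1, Myh11, Notch3, Itga6 and Krt10 kept their calls when each library was left out. Rspo3 lost its call without AP.2, AP.3 or AP.4, and Wif1 without VC.2, VC.3, VC.4, AP.2 or AP.4. Alx4 lost it without VC.1, VC.2, VC.3, AP.2 or AP.4, and Mbp without VC.2, VC.4, AP.2, AP.3 or AP.4. Cdh5 lost it without VC.1, VC.2, AP.2, AP.3 or AP.4, and Col17a1 without VC.1, VC.4, AP.3 or AP.4. Itgb4 lost it without VC.1, VC.4, AP.2, AP.3 or AP.4, and Acta2 without VC.1, VC.2, AP.2 or AP.4. Kcnj8 kept it only without VC.4, and the 7 suprabasal markers called became 6 without any library other than AP.2 and 8 without AP.2. With total-count scaling the calls of Sox2, Rspo3, Wif1, Alx4, S100b and Mbp were lost, with log2 differences of −0.93, −0.58, −0.37, −0.50, −0.86 and −0.04.

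Limma called 0 of the fibroblast (10), adipocyte (8), macrophage (6) and tested muscle stem cell (5) markers, with 2, 2, 4 and 1 at an unadjusted p under 0.05. The unadjusted shares were 20%, 25%, 66.7% and 20%, beside 30.3% over all genes tested. Over all genes tested, limma called 10.3%, edgeR 10.7% and DESeq2 19.04%. EdgeR called 0 in each of these lists, with 2, 3, 4 and 0 at an unadjusted p under 0.05, and DESeq2 called 1 fibroblast marker (Dpt), 1 macrophage marker (Adgre1) and 0 of the other lists. Without AP.1, limma called Dpt, C1qa and the filament gene Des lower in AP, and without VC.2 Adgre1. Summed fibroblast markers were at 128484 ± 66698 in VC and 170967 ± 68657 in AP (SD, n = 4), with Col1a1 the most abundant. Adipocyte markers, led by Cfd, summed to 19295 ± 11298 and 22104 ± 9317, and macrophage markers, led by C1qa, to 5376 ± 2591 and 3184 ± 1170.

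The list of muscle stem cell and myoblast markers summed to 2943, 5282, 2795 and 3261 in VC.1 to VC.4. In AP.1 to AP.4 it summed to 4851, 1125, 616 and 1140.1, with AP.1 again in the VC range. Nearly all of each sum was Des, with 2898, 5217, 2738 and 3206 in VC and 4765, 1058, 596 and 1105 in AP, a filament gene that muscle fibres and smooth muscle also express, so the sum does not measure muscle stem cells. The defining marker Pax7 did not pass the filter, with 1, 0, 1 and 0 reads in the VC libraries and 8, 31, 6 and 7 in the AP libraries. In normalized counts Pax7 was at 0 to 1.82 in VC and 2.99 to 16.7 in AP, higher in all AP libraries, with all VC values at or below the floor. Myf5 had at most 3 reads in VC, with 0 in VC.1, VC.2 and VC.4, and 3 to 8 in AP, and normalized ranges of 0 to 4.10 and 2.15 to 5.80 that overlap. Cdh15, with a log2 difference of 0.87, was not called either. Within the tested part, Myod1 was at 0 in AP.4, Myog in AP.3 and Cdh15 in VC.1. The part of these cell types in the values of the imprinted genes was not tested.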

How the data were processed

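The deposited signal values are read counts per gene that the authors divided by 1 size factor per library. The submitters' processing notes name STAR, HTSeq, DESeq2 and mm10, whereas the paper's methods name featureCounts as the counter. The strand setting was not given in the sources used here. All 150160 values were whole multiples of 1 step per library (100%, tolerance 0.01 reads), so reads were recovered. The authors' own comparison columns were not used.

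AP and VC were compared with limma 3.58.1 (R 4.3.3; linear model, empirical Bayes, intensity trend) on log2(value + 1), a scale that understates changes of low genes, with Benjamini-Hochberg adjustment over all 15964 genes tested. EdgeR 4.0.16 and DESeq2 1.42.0 were run on the recovered reads. Other alternatives were TMM, upper-quartile and total-count scaling, with and without mitochondrial genes, pseudocounts of 0.5 and 5, no filter or a minimum of 10, and each library left out. The ratio of H19 to muscle markers was added after seeing the data. The steps were tested on simulated data.

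The members and gene lists were chosen with earlier results of these data known. Genes named are the 10 members, up to 6 called genes per list by smallest adjusted p, the gene with the highest mean of each list, and the 5 profiles nearest to H19. The most abundant gene of a list has its highest mean normalized count, not corrected for length. Igf1, Atp2a1, Pax7, Myf5, Myod1, Myog, Cdh15, Tnnt3, Mylpf, the myosin genes, genes sharing exons and the genes called by DESeq2 alone were named after their values were seen. Exon lengths and positions are from GENCODE M21, which held 18766 of the 18770 identifiers. Genes of the lists not found by symbol were not analysed here. Depth was 6454563 to 11190113 reads per library, and 3 reads or fewer were taken as the floor, which covers counting error only. Labels give 1 sample per library; p-values measure the spread between these samples.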

Additional observations from a re-analysis of the deposited data

Results flagged for a closer look

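In 13 of 76 groups of 4 libraries, the highest or lowest library lay far from the nearest other library relative to the range of its group; chance alone gives about 5%, or 3.8 groups. That share cannot be set against the count here, since Eno3, Rabep2, Ckm, Eef1a2 and Acta1 were chosen for their likeness to H19 and the muscle sum holds Ckm and Acta1.

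AP.1 was far above the other AP libraries in H19, in the 5 genes nearest to it and in the muscle fibre sum. The values in AP.1 were H19 at 3132 normalized counts, Eno3 at 2931, Rabep2 at 4904, Ckm at 10217, Eef1a2 at 1225, Acta1 at 20882 and the summed muscle fibre markers at 71803. The sum of the muscle stem cell list, which is nearly all Des, was also far above in AP.1, at 4851. VC.2 was far above the other VC libraries in Ckm, at 13031, and in Eef1a2, at 1449.7. Ndn was high in VC.4, at 549 against 310 to 341 in the other VC libraries. Dlk1 was low in VC.4, at 1.88, which is a single read. The summed endothelial markers were high in AP.2, at 7904 against 2663 to 3179 in the other AP libraries.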

How the results depend on the processing

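For genes called, AP against VC, DESeq2 gave 3039 (genes called higher in AP 1677, genes called lower in AP 1362), 1 of the 10 imprinted genes, 4 genes of their domains, 1 relative and 2 imprint maintenance genes. EdgeR called 1 IGF signalling gene. Upper-quartile scaling gave 2 genes of the same domains, and no filter gave 0 (limma). Total counts without mitochondrial genes gave 1 gene of other domains and 1 of IGF signalling.

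Total-count scaling, which takes in the mitochondrial reads, changed the genes called, AP against VC, to 8735 (genes called higher in AP 8670, genes called lower in AP 65), with 1 of the 10 imprinted genes (Plagl1), 12 of the same domains, 9 of other domains, 10 of IGF signalling, 9 relatives and 8 maintenance genes. It moved the median of all genes by 0.84 and turned the log2 difference of Commd1 to 0.0223, of Igfbp4 to 0.65 and of Sox18 to 0.31. It also moved the log2 difference of Peg3, Cdkn1c, Grb10, Mest, Plagl1 and Ndn by more than their spread. H19 over the summed muscle markers, a ratio chosen after seeing the data, differed by −0.03.

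With each library left out, the genes called, AP against VC, ranged from 307 (without AP.3) to 1873 (without AP.1), genes called higher in AP from 211 to 1061 and genes called lower in AP from 96 to 812. The imprinted genes called ranged from 0 to 3, those of the same domains from 0 to 1, of other domains from 0 to 2, of IGF signalling from 0 to 3, relatives from 0 to 1 and maintenance genes from 0 to 2. Fewer samples enter each of these fits; beyond that, the cause was not tested. Of the single-gene values, 854 kept direction and side of the threshold or moved less than their spread, 94 lost a call, 14 gained one, 7 untested ones moved by more than their spread and 3 tested ones turned. In all, 11 values of 8 genes changed sign, among them Meg3, Peg3, Grb10, Mest and Ndn. At 3 reads or fewer, as for Igf2, no difference can be read.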
